A study of Rattus norvegicus with 48 samples.

Results

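In rat hearts taken 30 days after the last injection of methamphetamine or saline, called abstinence here, 150 genes had the most negative correlation with Bmal1 (gene symbol Arntl). They were chosen from the 10702 genes with a mean normalized count of at least 50, out of 32883 genes in the count table. The choice used Pearson's r of log2(normalized count + 1) with Arntl over 20 abstinence libraries, and the clock genes Per2, Per3, Dbp, Tef, Cry2, Nr1d1 and Nr1d2 were left out by name. All hearts were collected between 09:00 and 11:00, so the correlation runs across animals at one time of day and the data hold no time series: whether these genes cycle in antiphase to Bmal1 cannot be read from them. The genes are described here mainly in the day 11 libraries, which played no part in the correlation. The mean was taken over all libraries, day 11 included: 149 of the 150 also had a mean of at least 50 over the 20 abstinence libraries alone, and ENSRNOG00000042717 did not.

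Sprague Dawley rats of both sexes, aged 8 weeks when dosing began, received methamphetamine (5 mg/kg per day, subcutaneous) or saline for 10 days. Left ventricles were taken 24 h after the last injection, called day 11 here, or after 30 days without injections. RNA-seq counts of 47 libraries were available, 6 rats in each of the 8 groups of sex, treatment and time except day 11 saline females, where the library of replicate 3 was not analysed here. Each litter was spread over the groups. Day 11 and abstinence libraries formed separate sequencing pools, so pool and time point cannot be told apart, and the day 11 saline males came from a lower series of rat numbers than the methamphetamine-treated males, which leaves number series and treatment confounded there: they cannot be told apart.

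Library totals ran from 6661581 to 11314050 counts. The replicate 5 library of every group went against its labelled sex. In the 4 libraries labelled female, the level of 4 male-expressed genes was 85.8 to 115% of the male median, and in the 4 labelled male it was 7.31 to 12.1%. In the other libraries it was 0 to 2.52% in females and 70.9 to 116% in males. Replicate 5 was left out of the choice of the genes and of every value here unless stated, which leaves 4 saline and 5 methamphetamine-treated females and 5 males of each treatment at day 11.

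BMAL1 pairs with CLOCK or its relative NPAS2, binds E-box motifs and drives the Per and Cry genes, the Rev-erb receptors Nr1d1 and Nr1d2, and the PAR bZIP factors Dbp and Tef. PER and CRY proteins repress BMAL1 and CLOCK, and the Rev-erb receptors repress transcription of Bmal1 itself, so targets of the pair commonly peak at a different time of day from Bmal1. In the heart the clock is known to time genes of metabolism, signalling and contraction.

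The 150 genes had an r between -0.96 and -0.58 (median -0.65), and 14 of them lay under -0.8. With the group means removed, r stayed negative for all 150, between -0.95 and -0.29 (median -0.58). The 3 genes just inside the limit had an r of -0.584, -0.584 and -0.583, the last being Sesn1, and the 3 just outside it had -0.582, -0.581 (Eef2k) and -0.580. Among the named clock genes left out, Per3 had the lowest r (-0.96) and Cry2 the highest (-0.57, rank 166, past the limit). These values chose the genes and carry no test. The normalized counts of the 150 ran from 51.2 to 7612 (median 320, against 264 for the 10702 genes).

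A symbol was at hand for 27 of the 150, and each of these 27 was listed by the study as changed in these libraries, so their changes are not independent evidence. The 12 named genes with the lowest r were Tns2, Cdc25b, Pik3ip1, Dgat2, Ephx1, Usp2, Pim3, Cdc42ep2, Dusp7, Anks1a, Fam46b and Rhobtb1, with r from -0.86 for Tns2 to -0.75 for Rhobtb1. The gene with the lowest r of all, ENSRNOG00000042717, had no symbol (r -0.96).

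Without replicate 5, Bmal1 itself differed with treatment at day 11 in both sexes. In females, Arntl stood at 59.5, 60.5, 77.5 and 83.4 CPM (counts scaled to a library total of 1000000) in saline hearts and at 1.54, 1.97, 1.99, 2.07 and 2.5 CPM in methamphetamine-treated hearts. In males, Arntl stood at 14.3, 18.1, 27.7, 36.5 and 39.5 CPM in saline hearts and at 4.29, 7.55, 8.73, 9.50 and 9.81 CPM in methamphetamine-treated hearts. The groups did not overlap in either sex, and the log2 fold change of Arntl was -5.12 ± 0.15 (SE) in females and -1.76 ± 0.28 in males. With replicate 5 kept, the ranges overlapped in both sexes. They were then 54.0 to 83.4 CPM (saline) and 1.54 to 60.1 CPM (methamphetamine) in females. In males they were 10.7 to 39.5 and 4.29 to 50.5 CPM. The study reported no change of this gene in male hearts by RNA-seq. In males, number series and treatment coincide.

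The mean of the 150 genes in a library, on the log2 scale and centred on the 39 libraries without replicate 5, was compared with Arntl. At day 11 it ran from -0.22 to -0.06 in saline females and from 0.21 to 0.25 in methamphetamine-treated females, with no overlap. In males it ran from -0.21 to 0.02 with saline and from -0.003 to 0.15 with methamphetamine, and these ranges overlapped. In the abstinence libraries, which chose the genes and so fix the direction, saline males lay lowest (-0.31 to -0.17) and methamphetamine-treated females spread most widely (-0.16 to 0.47). The replicate 5 library labelled as a methamphetamine-treated female at day 11 had an Arntl value of 9.10 on the log2 scale, against 3.85 to 4.53 in the other 5 of its group, and a mean of the 150 genes of -0.17.

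**Figure D1:**
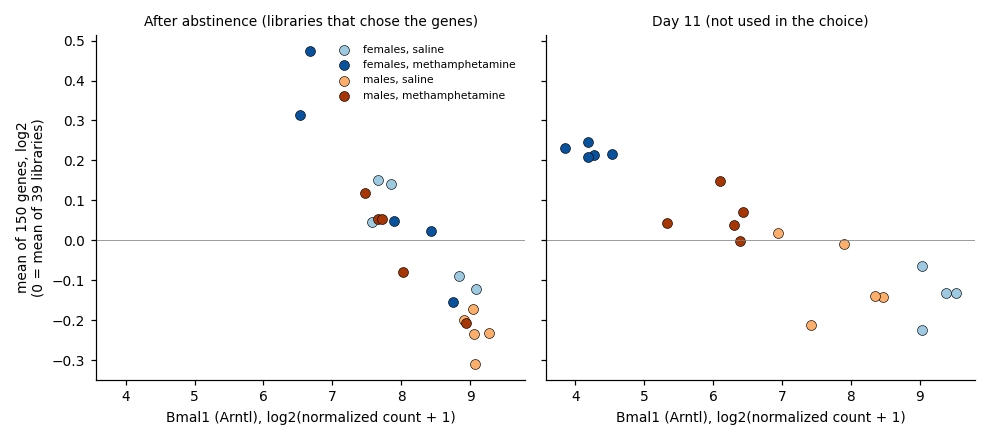
Mean of the 150 genes (vertical axis, log2, 0 being the mean of 39 libraries) against Arntl (horizontal axis, log2 of the normalized count + 1) in each library without replicate 5, by sex and treatment; the left panel holds the abstinence libraries that chose the genes and the right panel the day 11 libraries. At day 11 the 5 methamphetamine-treated females lie at 0.21 to 0.25 and the 4 saline females at -0.22 to -0.06.

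Methamphetamine-treated females at day 11 had 69 of the 150 genes higher (68 without ENSRNOG00000042717) and 2 lower than saline females at an adjusted p under 0.1 (edgeR quasi-likelihood test, Benjamini-Hochberg over all genes). Over all 13986 genes tested, 4.28% were higher and 5.16% lower. The median log2 fold change of the 150 was 0.19, against 0.00 over all genes, and 131 of the 150 were positive. Every methamphetamine-treated library lay above every saline library for 64 genes, ENSRNOG00000042717 among them, and below for 1 (4.83% and 4.95% of all genes). The groups overlapped for the other 85. With replicate 5 kept, 43 genes were higher and 0 lower (1.8% and 2.38% of all genes). At an unadjusted p under 0.05, 72 were then higher and 1 lower, and 1870 of all 13890 genes were under it in either direction. In whole ventricle, fewer cells of a type and less RNA per cell cannot be told apart.

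Methamphetamine-treated males at day 11 had 19 of the 150 genes higher and 0 lower than saline males by edgeR, against 3.37% higher and 3.17% lower of 13887 genes tested. At an unadjusted p under 0.05, 46 were higher and 2 lower, where 3142 of all 13887 genes were under it in either direction. DESeq2 called 27 higher and 0 lower (6.08% and 4.9% of all genes). The median log2 fold change was 0.12, against -0.02 over all genes, and 113 of the 150 were positive. The groups did not overlap for 14 genes, all of them higher with methamphetamine (3.49% of all genes, and 3.69% lower). The male count rested on single libraries: it was 6, 5, 8 or 10 without methamphetamine replicate 1, 2, 4 or 6. It was 9 without saline replicate 2, and 16 to 23 without any one of the others. Over all genes the calls fell as well, from 468 higher to 58, 54, 75 or 88 without those methamphetamine replicates. Without saline replicate 2 they were 173, and without any one of the others 230 to 778. With replicate 5 kept, edgeR called 0 of the 150, and 0.0% of all genes, in either direction. At an unadjusted p under 0.05, 10 were then higher and 6 lower, and 2020 of all 13753 genes were under it in either direction.

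**Figure D2:**
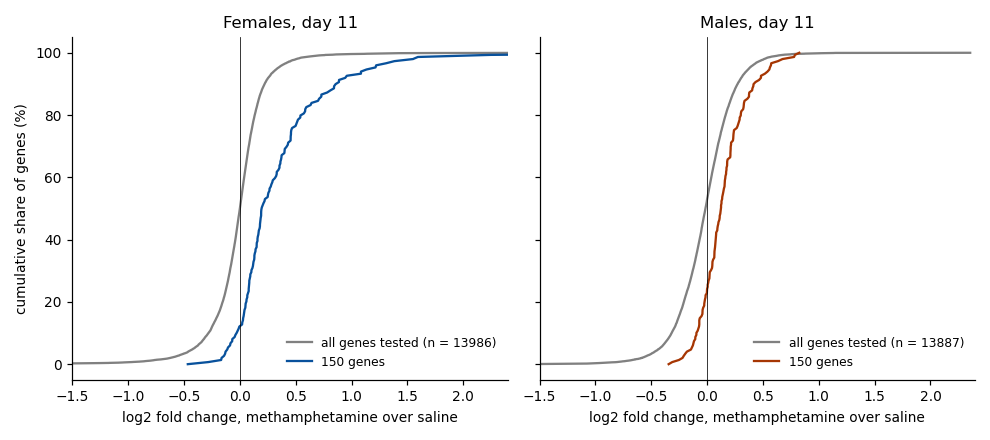
Cumulative share of genes (vertical axis, %) by log2 fold change of methamphetamine over saline at day 11 (horizontal axis) for all genes tested (grey) and the 150 genes (colour), in females (left) and males (right). The curve of the 150 lies to the right of that of all genes in both panels, with medians of 0.19 in females and 0.12 in males.

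The counts at day 11 fell from the lowest r to the limit. Of the 50 genes with the lowest r, 35 were higher in females, ENSRNOG00000042717 among them, and 8 in males. Of the next 50, 20 and 7 were higher, and of the last 50, 14 and 4, beside 4.28% (females) and 3.37% (males) of all genes. Both genes that were lower in females, ENSRNOG00000011427 (log2 fold change -0.47 ± 0.11, adjusted p = 0.0227) and ENSRNOG00000018677 (-0.28 ± 0.08, adjusted p = 0.0628), belonged to the last 50, and the call of the second was lost in 10 of 17 alternatives (adjusted p up to 0.174). All 27 genes with a symbol were higher in females and 11 of them in males. Of the 123 without a symbol, some of which those lists also hold without a symbol, 42 (34.1%) were higher and 2 lower in females by edgeR. In males 8 (6.5%) were higher by edgeR, where all genes stood at 3.37%. DESeq2 called 6.08% of all genes higher in males, and its calls among these 123 were not counted.

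Across the sexes, 16 genes were higher in both, which is 23.2% of the 69 called in females and 84.2% of the 19 called in males. The share of all genes higher in both sexes was not counted, so neither percentage can be set against a background. Of these, 11 had a symbol: Usp2, Cipc, Pik3ip1, Sesn1, Dgat2, Acot11, Ephx1, Rhobtb1, Map2k6, Lmod2 and LOC100909784. They are described by role, with the value in every library for most of them. These were picked for display after their values were seen.

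**Figure D3:**
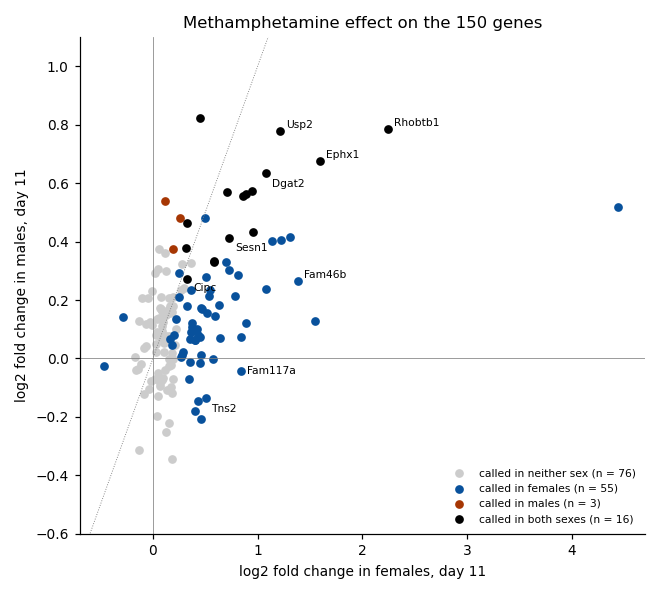
Log2 fold change of methamphetamine over saline at day 11 in females (horizontal axis) and males (vertical axis, on a wider scale) for the 150 genes, coloured by the sex in which the adjusted p was under 0.1; the dotted line marks equal change. Most coloured points lie to the right of the dotted line, 55 genes being called in females, 3 in males and 16 in both.

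Usp2 and Cipc act on the clock itself. Usp2, a deubiquitinase that acts on clock proteins, stood at 23.2, 39.1, 41.9 and 44.6 CPM in saline females and at 78.3, 85.0, 87.0, 90.4 and 91.5 CPM in methamphetamine-treated females. In males, Usp2 stood at 30.8, 32.2, 34.0, 45.2 and 47.5 CPM with saline and at 52.4, 59.0, 64.2, 69.5 and 78.6 CPM with methamphetamine. All treated hearts lay above all saline hearts in both sexes. The log2 fold change of Usp2 was 1.21 ± 0.13 (adjusted p = 3.49e-05) in females and 0.78 ± 0.13 (adjusted p = 0.0171) in males.

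Cipc, which binds CLOCK and represses the CLOCK and BMAL1 pair, changed less. It stood at 55.7, 62.3, 65.6 and 69.1 CPM in saline females and at 75.7, 77.9, 78.4, 81.5 and 82.4 CPM in treated females. In males, Cipc stood at 51.7, 66.8, 67.6, 68.4 and 71.7 CPM with saline and at 73.9, 75.2, 77.9, 82.7 and 82.7 CPM with methamphetamine. The groups were close but did not overlap in either sex. The log2 fold change of Cipc was 0.33 ± 0.07 (adjusted p = 0.00635) in females and 0.27 ± 0.07 (adjusted p = 0.0674) in males.

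Pik3ip1 and Sesn1 restrain growth signalling and are known targets of FoxO factors. Pik3ip1, an inhibitor of phosphoinositide 3-kinase, stood at 45.1, 51.3, 51.8 and 59.4 CPM in saline females and at 89.9, 95.3, 100.7, 107 and 109 CPM in treated females. In males, Pik3ip1 stood at 54.3, 54.4, 61.0, 61.6 and 73.8 CPM with saline and at 73.5, 82.3, 83.9, 84.4 and 86.8 CPM with methamphetamine, where 1 saline heart lay above the lowest treated one. The log2 fold change of Pik3ip1 was 0.96 ± 0.08 (adjusted p = 2.62e-06) in females and 0.43 ± 0.09 (adjusted p = 0.0363) in males.

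Sesn1, a stress-induced sestrin that inhibits mTORC1, ran from 77.6 to 99.8 CPM in saline females and from 137 to 163 CPM in treated females. In males, Sesn1 ran from 80.3 to 103 CPM with saline and from 111 to 134 CPM with methamphetamine, so the groups were apart in both sexes. Its log2 fold change was 0.73 ± 0.08 (adjusted p = 2.60e-05) in females and 0.41 ± 0.08 (adjusted p = 0.0284) in males.

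Dgat2, Acot11 and Ephx1 are enzymes of lipid and xenobiotic metabolism. Dgat2 catalyses the last step of triglyceride synthesis. It stood at 17.5, 18.5, 20.0 and 25.6 CPM in saline females and at 40.1, 40.7, 41.8, 44.7 and 48.9 CPM in treated females. In males, Dgat2 stood at 16, 18.2, 20.5, 21.4 and 23.5 CPM with saline and at 24.7, 25.3, 28.0, 36.4 and 39.2 CPM with methamphetamine. The groups did not overlap in either sex, and the log2 fold change of Dgat2 was 1.08 ± 0.11 (adjusted p = 1.24e-05) in females and 0.63 ± 0.15 (adjusted p = 0.0525) in males.

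Ephx1, the microsomal epoxide hydrolase, stood at 12.0, 14.6, 15.3 and 17.3 CPM in saline females and at 36.7, 41.5, 47.7, 47.7 and 49.1 CPM in treated females. In males, Ephx1 stood at 14.7, 15.7, 18.1, 21.5 and 27.8 CPM with saline and at 29.0, 30.4, 30.6, 32.4 and 33.2 CPM with methamphetamine. The groups were apart in both sexes, widely so in females. The log2 fold change of Ephx1 was 1.59 ± 0.11 (adjusted p = 3.88e-07) in females and 0.68 ± 0.14 (adjusted p = 0.0343) in males. Acot11, an acyl-CoA thioesterase, ran from 16.8 to 30.0 CPM in saline females and from 39.6 to 50.4 CPM in treated females, and its male ranges of 12.7 to 24.8 and 24.0 to 37.2 CPM overlapped (log2 fold change of Acot11 0.89 ± 0.13, adjusted p = 0.000376, and 0.56 ± 0.16, adjusted p = 0.0783).

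Rhobtb1 and Map2k6 belong to signalling. Rhobtb1, which works with the ubiquitin ligase scaffold cullin 3, had the largest change in females among the genes with a symbol. It stood at 41.3, 44.5, 49.1 and 52.9 CPM in saline females and at 171, 205, 212, 256 and 268 CPM in treated females. In males, Rhobtb1 stood at 47.6, 54.6, 55.3, 68.5 and 90.7 CPM with saline and at 76.5, 82.8, 113, 122 and 149.6 CPM with methamphetamine. The female groups were far apart, while 1 saline male lay above 2 treated males. The log2 fold change of Rhobtb1 was 2.25 ± 0.12 (adjusted p = 1.81e-08) in females and 0.79 ± 0.20 (adjusted p = 0.0609) in males.

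Map2k6, the kinase MKK6 that activates p38, stood at 7.28, 8.73, 10.1 and 10.7 CPM in saline females and at 12.8, 17.3, 17.7, 19.5 and 20.3 CPM in treated females. In males, Map2k6 stood at 8.71, 8.99, 9.14, 11.3 and 13.0 CPM with saline and at 14.4, 14.8, 15.1, 15.1 and 16.8 CPM with methamphetamine. No saline heart reached a treated one in either sex. The log2 fold change of Map2k6 was 0.94 ± 0.14 (adjusted p = 0.000592) in females and 0.57 ± 0.11 (adjusted p = 0.0272) in males.

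Lmod2, leiomodin 2, promotes actin filament growth in the sarcomere. Lmod2 ran from 353 to 384 CPM in saline females and from 543 to 584 CPM in treated females (log2 fold change 0.59 ± 0.05, adjusted p = 2.95e-06). In males, Lmod2 ran from 410.1 to 502 CPM with saline and from 529 to 655 CPM with methamphetamine (0.34 ± 0.08, adjusted p = 0.0546). LOC100909784 stood at 100.7 to 107% of Lmod2 in all 47 libraries, and LOC100911766 at 103 to 128% of the tetraspanin gene Tspan4. Whether each pair shares reads was not tested, so the members of a pair are uncertain as separate genes.

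**Figure D4:**
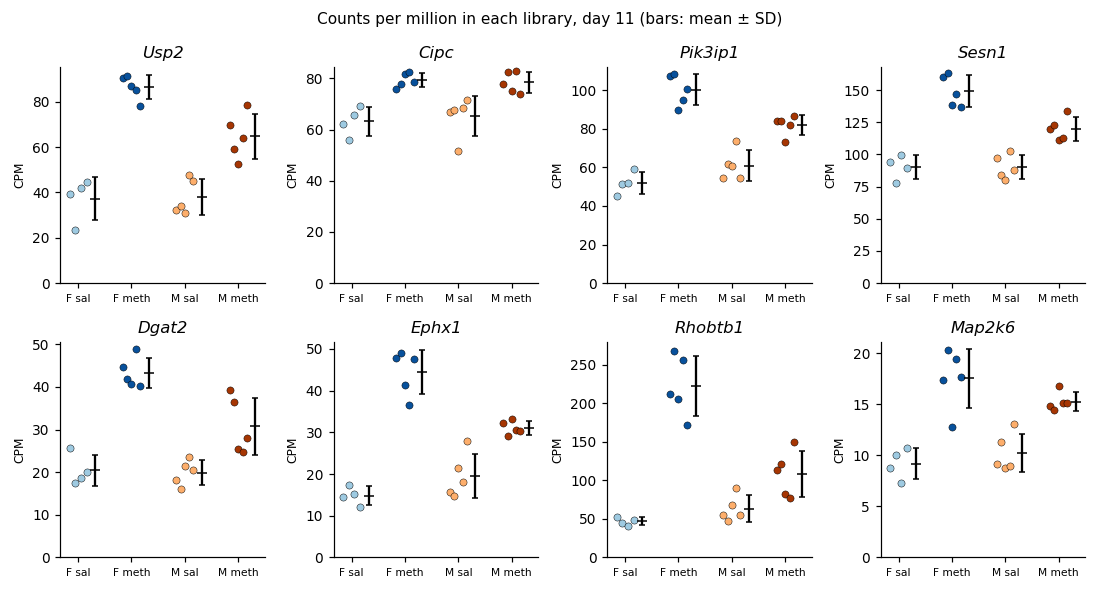
CPM (vertical axes, from 0) of 8 genes in each day 11 library without replicate 5, by sex (F, M) and treatment (sal, saline; meth, methamphetamine); bars give mean ± SD (n = 4 saline females, n = 5 in the other groups). Treated females lie above saline females in every panel, and treated males overlap saline males for Pik3ip1 and Rhobtb1.

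Because BMAL1 and CLOCK bind E-boxes, the promoters of the named genes were searched for that motif. RefSeq promoter windows (GRCr8, 250 bases before to 50 after the start used in the table, matched by symbol) were at hand for 20 of the 27 named genes. The canonical E-box CACGTG, which reads the same on both strands, lay in windows of 3 of the 20 genes, Rhobtb1, Acot11 and Cnksr1. Of all 27457 genes, 7.08% held it in a window. Of the 7 clock genes left out by name, Tef and Nr1d1 held it. The stretches around these 3 E-boxes follow because they hold the motif, with the E-box in capitals, on the minus strand at chr20:19402061-19402146, chr5:126804617-126804702 and chr5:151741927-151742012, with the motif 49, 155 and 93 bases before the start.
Rhobtb1: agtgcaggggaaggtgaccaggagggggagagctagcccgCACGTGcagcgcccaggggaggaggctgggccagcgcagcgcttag
Acot11: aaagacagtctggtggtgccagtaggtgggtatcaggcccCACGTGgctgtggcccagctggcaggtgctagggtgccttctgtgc
Cnksr1: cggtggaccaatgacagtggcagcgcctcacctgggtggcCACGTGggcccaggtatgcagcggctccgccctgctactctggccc

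Other motifs were searched on both strands, none of them overlapping CACGTG. The E-box-like CACGTT lay in windows of 0 of the 20 genes (5.3% of all genes). The D-box forms TTATGTAA and TTACGTAA lay in 0 (0.958% and 0.135%). The Rev-erb and ROR element TAGGTCA lay in 0 (2.83%). The glucocorticoid receptor half-site AGAACA lay in 2, Tns2 and Ephx1 (21.6%). Of the 7 clock genes left out by name, CACGTT lay in 3 (Per2, Cry2 and Nr1d1), TTATGTAA in 1 (Per2), and TTACGTAA, TAGGTCA and AGAACA in 0. A match in such a window is a description of its letters and not a bound site, and windows of this size leave out most regulatory sequence.

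The change with methamphetamine differed between the sexes for 14 of the 150 genes at day 11 (13 without ENSRNOG00000042717), all larger in females (edgeR, interaction of sex and treatment). Over all 14343 genes tested, 0.328% differed in that direction and 0.467% in the other. None of the 150 was called in the other direction by edgeR or DESeq2 on all 19 libraries. Without saline female replicate 2, edgeR called 2 in that direction (173 of all 14444 genes). DESeq2 called 16 larger in females (0.53% of all genes, and 0.837% smaller). By edgeR, 49 were larger and 4 smaller at an unadjusted p under 0.05. Of all 14343 genes, 1428 were under it in either direction. With replicate 5 kept, 2 were called, ENSRNOG00000060511 and Tns2, both larger in females (0.084% of all genes, and 0.035% smaller). The number series of rats coincides with treatment in males and not in females, and its part in the sex difference cannot be told apart.

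Of the 14, 9 had a symbol. Rhobtb1 had the largest difference among these (log2 1.46 ± 0.26, adjusted p = 0.0101), followed by Ephx1 (0.91 ± 0.19, adjusted p = 0.0312), Tspan4 (0.89 ± 0.21), Fam117a (0.88 ± 0.20), LOC100911766 (0.81 ± 0.19), Cdc25b (0.76 ± 0.14), Tns2 (0.64 ± 0.11), Pim3 (0.57 ± 0.10) and Pik3ip1 (0.52 ± 0.13). The call was lost in 13 of 26 alternatives for Pik3ip1 (adjusted p = 0.077), 11 for Tspan4 (adjusted p = 0.068) and 10 for LOC100911766 (adjusted p = 0.059). It was lost in 2 for Fam117a, in 1 each for Rhobtb1, Ephx1, Cdc25b and Pim3, and in 0 for Tns2. Rhobtb1, Ephx1 and Pik3ip1 were higher in both sexes, and by more in females, though the male call of Rhobtb1 was lost in 7 of 18 alternatives. Tns2, Pim3, Cdc25b and Fam117a were called in females and had male log2 fold changes of -0.14, -0.002, 0.12 and -0.04.

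Tns2, tensin 2, links integrins to the actin skeleton. It stood at 130.0, 141, 141 and 158 CPM in saline females and at 190.2, 198, 205, 209 and 211 CPM in treated females. In males, Tns2 stood at 151, 158, 159, 186 and 217 CPM with saline and at 133, 156, 159, 163 and 178 CPM with methamphetamine, with broad overlap. The interaction of Tns2 had an adjusted p of 0.00819.

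Pim3, a serine/threonine kinase, stood at 46.4, 46.9, 47.7 and 52.7 CPM in saline females and at 67.0, 67.8, 69.3, 76.1 and 78.5 CPM in treated females. In males, Pim3 stood at 48.2 to 57.6 CPM with saline and 50.2 to 59.4 CPM with methamphetamine. Cdc25b, a phosphatase that activates cyclin-dependent kinases, ran from 16.5 to 19.5 CPM in saline females and from 27.8 to 38.6 CPM in treated females, and the male ranges of Cdc25b were 18.5 to 24.4 and 19.0 to 26.9 CPM. Both genes separated the treatments in females and overlapped in males.

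ENSRNOG00000042717, the gene with the lowest r, passed the mean count limit through libraries other than those of abstinence, treated day 11 females among them, so its values are a description with no test. It ran from 0.189 to 0.924 CPM in saline females and from 7.62 to 15.7 CPM in treated females. In males the ranges were wide and overlapped, 0.938 to 11.2 CPM with saline and 2.14 to 9.63 CPM with methamphetamine. ENSRNOG00000060511 ran from 3.88 to 5.14 CPM in saline females and from 11.6 to 14.1 CPM in treated females, and its effect differed between the sexes by 1.42 ± 0.21 (adjusted p = 0.000885).

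The remaining named genes were higher in females and not called in males. Fam46b, a poly(A) polymerase, changed most among them (log2 fold change 1.38 ± 0.20 in females, 0.26 ± 0.34 in males), and its male values were widely spread, from 10.1 to 40.2 CPM with saline. Several act in signalling: Smad7 inhibits TGF-beta signalling (0.46 ± 0.09 in females), Dusp7 is a phosphatase of the MAP kinase ERK (0.54 ± 0.08), Cnksr1 is a scaffold of Ras signalling (0.73 ± 0.09), Anks1a is an adaptor of Eph receptors (0.52 ± 0.06) and Cdc42ep2 an effector of the GTPase Cdc42 (0.46 ± 0.08). P4ha2, a collagen prolyl hydroxylase (0.40 ± 0.09), Pola2, a subunit of DNA polymerase alpha (0.47 ± 0.07), Ier3 (0.54 ± 0.10) and Ifrd2 (0.43 ± 0.07) complete the set. In all 27, the log2 fold change was larger in females than in males. These 27 came from the study's lists of genes changed in these libraries, so this direction is not independent evidence. Over the 150, the change was larger in females for 104 and smaller for 46 (51.1% larger over all 14343 genes).

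**Figure D5:**
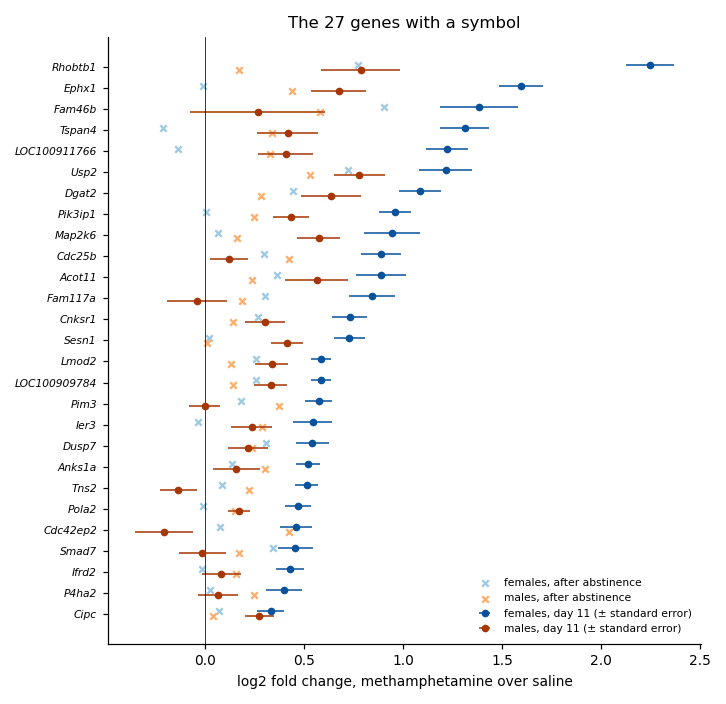
Log2 fold change of methamphetamine over saline (horizontal axis) for the 27 genes with a symbol, ordered by the value in females; dots with bars give day 11 (± standard error, 4 against 5 females and 5 against 5 males), and crosses give the abstinence values, which carry no test. Female dots run from Cipc at 0.33 to Rhobtb1 at 2.25, to the right of the male dot for every gene. All 27 came from the study's lists of genes changed in these libraries.

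Within the day 11 groups, none of the 150 genes was called for a slope on Bmal1. With group as a term, edgeR called 0 of the 150 lower and 0 higher per log2 unit of Arntl, and over all 14343 genes 0.00697% were called higher, which was Arntl itself, and 0.0% lower. At an unadjusted p under 0.05, 9 of the 150 fell with Arntl, ENSRNOG00000042717 among them, and 2 rose (2.87% and 2.76% of all genes). DESeq2 called 1 lower, LOC100911766 (0.0697% of all genes lower, 0.0627% higher). The smallest unadjusted p by edgeR belonged to LOC100911766 (-0.38 ± 0.09 log2 per log2 of Arntl, adjusted p = 0.474), Ephx1 (-0.36 ± 0.10, adjusted p = 0.538) and Tspan4 (-0.41 ± 0.11, adjusted p = 0.538). The median slope of the 150 was -0.03, against -0.01 over all genes. The spread of Arntl within groups was smaller at day 11 (SD 0.44, log2) than after abstinence (0.68). With replicate 5 kept, 31 of the 150 were called lower and 0 higher (0.525% and 0.742% of all genes). Of the 4 libraries this adds, which go against their labelled sex, the methamphetamine-treated ones lay far from their groups in Arntl, at 9.10 against 3.85 to 4.53 (labelled female) and 8.85 against 5.33 to 6.44 (labelled male) on the log2 scale.

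After abstinence, the values carry no test because these libraries chose the genes. In females, 126 of the 150 were higher with methamphetamine (median log2 fold change 0.10, against -0.01 and 47.8% positive over all genes). In males, 146 of 149 were higher (0.18, against 0.002 and 50.7%), the remaining gene having too few counts for a value. Usp2 ran from 33.7 to 64.3 CPM in saline females, from 29.2 to 141 CPM in methamphetamine-treated females, from 23.8 to 37.3 CPM in saline males and from 29.2 to 57.6 CPM in methamphetamine-treated males. Ephx1, among the most changed genes at day 11, had abstinence values of -0.01 (females) and 0.44 (males) on the log2 fold change scale.

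Lists of related genes were set beside the 150, with identifiers at hand only for genes the study listed as changed in these libraries, so that their counts are not independent evidence. Of the clock repressors and outputs, 10 of 21 had an identifier: all 10 were higher in females and 6 in males, and Usp2, Cipc and Tspan4 among them belong to the 150. Of the clock activators and night genes, 5 of 8 had one, with 4 lower in females and 2 in males. Among FoxO and fasting targets (5 of 17), 3 were higher and 2 lower in females, and 2 were higher and 1 lower in males, with Pik3ip1 and Sesn1 among the 150. Of the genes of fatty acid oxidation and storage (3 of 18), 1 was higher and 1 lower in females and 2 were higher in males, with Dgat2 among the 150. Glucocorticoid-induced genes (4 of 19) had 3 higher and 1 lower in females and 1 higher in males. Glucose uptake and glycolysis (5 of 17) had 4 higher and 1 lower in females and 1 of each in males. Both cardiac ion channel genes (2 of 16) were lower in females and not called in males, all 5 extracellular matrix genes (of 16) were lower in both sexes, and no heat shock or cold-inducible gene had an identifier (0 of 16).

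Of 43 markers in 10 cell type lists, 3 had an identifier, so the ventricular label could not be checked against its defining markers. The atrial myosin light chain Myl4 stood at 92.1, 38.3, 14.4 and 5.96 CPM in saline females and at 2.998 to 5.67 CPM in treated females (log2 fold change -3.18 ± 0.60, adjusted p = 0.00419), and at 2.24 to 4.10 CPM in males. Without the saline female at 92.1 CPM, 65 of the 150 genes were higher in females (460 of all 14097 genes). Without the one at 38.3 CPM, 66 were (632 of all 14096). With both kept, 69 were (598 of all 13986). Each of these fits without 1 heart still held the other heart. The mural cell receptor Pdgfrb was lower in treated females (-0.33 ± 0.08, adjusted p = 0.0242), and the leukocyte gene Ptprc had a log2 fold change of 0.02 ± 0.09 (adjusted p = 0.948). The part of other cell types in the female counts was not tested beyond these values.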

How the data were processed

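RNA-seq libraries of rat left ventricle were deposited as raw counts per gene and as the same counts divided by DESeq2 size factors (the normalized signal), with Ensembl identifiers and no symbols. Per the labels and methods, the authors used Trimmomatic 0.38 for trimming, HISAT2 2.1.0 for alignment to rn6, and DESeq2 1.20.0. Symbols came from gene lists of the study, 328 pairs in all. The 150 genes were chosen on the deposited normalized signal, and tests were run on the deposited counts. The genes, lists and tests were chosen with earlier results of these data known.

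Day 11 groups of one sex were compared, methamphetamine against saline, by edgeR 4.0.16 (R 4.3.3; quasi-likelihood test, TMM factors, default low-count filter, Benjamini-Hochberg over all genes tested, threshold 0.1 as in the study), in a fit of the libraries of that comparison. The sex difference and the slope on Arntl (log2 CPM with a prior count of 2) used a fit of the 4 day 11 groups. CPM are counts scaled to a library total of 1000000. Scripts were tested on simulated counts in which 200 genes changed 2-fold, or 2-fold per log2 unit of Arntl for the slope. At the threshold of 0.1, 94% (females), 85.5% (males), 86.5% (sex difference) and 97.5% (slope) of them were called. False calls were 13.0%, 11.9%, 10.4% and 6.25% of the calls. Smaller changes and slopes, such as most seen here, were not simulated. Each library is 1 rat, and depth limits the precision of genes with few counts. Counting by strand was not given in the sources used here, so antisense partners and near-identical copies are uncertain.

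Genes were named by rule: the 12 named genes with the lowest r, the 10 with the largest change in each sex, those called for the sex difference, those with the smallest slope p, the genes at the limit of r, list members, and at most 2 identifiers per direction. The others of the 27 genes with a symbol, and those shown by library, were named after their values were seen. Alternatives were replicate 5 kept, DESeq2 1.42.0, other size factors, other count filters, a replicate block, a single fit of 4 groups, an adjusted p of 0.05, leaving out each library and other ways to choose the genes. For the slope, they also were saline or methamphetamine groups only and leaving out the 2 libraries farthest in Arntl from the median of the 19 day 11 libraries. These 2 were saline females 1 and 4, at 6.38 and 6.24 log2 CPM against a median of 3.32. Leaving them out, the methamphetamine groups only and a mean count limit over the abstinence libraries were added after seeing the data.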

Additional observations from a re-analysis of the deposited data

Results flagged for a closer look

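In 3 of 52 gene and group combinations of 4 or 5 libraries, 1 library stood apart from the others by Dixon's criterion, and chance gives about 1 in 20. These were Map2k6 at 16.8 CPM in a methamphetamine-treated male, Lmod2 at 353 CPM in a saline female and Cipc at 51.7 CPM in a saline male, all at day 11.

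The effect of methamphetamine at day 11 differed between the sexes by the interaction test for the 9 genes with a symbol and for ENSRNOG00000060511. In each case the value was larger in females. On the log2 scale, the effect in females minus that in males was 1.46 for Rhobtb1, 1.42 for ENSRNOG00000060511, 0.91 for Ephx1, 0.89 for Tspan4, 0.88 for Fam117a, 0.81 for LOC100911766, 0.76 for Cdc25b, 0.64 for Tns2, 0.57 for Pim3 and 0.52 for Pik3ip1.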

How the results depend on the processing

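With replicate 5 kept, 43 genes were higher and 0 lower in females, 0 higher in males, 2 differed between the sexes and 31 fell with Arntl. A single fit of 4 groups gave 1 lower in females and 36 higher and 1 lower in males, where 8.02% of all genes were higher and 6.77% lower. At an adjusted p under 0.05, 1 was lower in females and 6 higher in males. The shares of all genes at that limit were not counted. Choosing the genes by Spearman's rank correlation (109 genes shared) gave 1 lower in females, choosing them with group means removed (67 shared) gave 4 lower in females and 1 in males, choosing them on all 24 abstinence libraries (85 shared) gave 0 lower in females and 34 higher in males, a mean of at least 50 over the 20 abstinence libraries alone (149 shared; added after seeing the data) gave 68 higher and 2 lower in females, 19 higher in males and 13 for the sex difference, and the 50 with the lowest r gave 35 higher and 0 lower in females and 8 higher in males. For the slope on Arntl, DESeq2 called 1 lower, LOC100911766. The saline groups alone called 1 lower (2 of all 14018 genes), ENSRNOG00000042717, which passed the mean count limit through other libraries and is only described. The median slope turned from -0.03 to 0.00925 in the methamphetamine groups alone. It ranged from -0.0426 to 0.0193 without 1 library, the positive value being without saline male replicate 6. Leaving out 1 library at a time gave 59 to 74 higher and 1 to 2 lower in females, 5 to 23 higher and 0 to 1 lower in males, 8 to 18 for the sex difference (2 of them smaller in females without saline female replicate 2) and 0 to 0 for the slope. Over all genes these fits gave 422 to 632 higher in females and 54 to 778 higher in males. For the sex difference they gave 26 to 89 larger and 37 to 173 smaller in females. Both highest values came without saline female replicate 2 (14444 genes tested), against 47 and 67 of 14343 with all 19 libraries. The cause of these changes was not tested.

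Same-numbered libraries had correlations of deviations between -0.098 and 0.125, so replicate numbers did not pair the hearts. The replicate block gave 62 higher and 1 lower in females (398 and 504 of all 13986 genes) and 26 higher in males (717 of all 13887). It gave 11 for the sex difference, where 36 of all 14343 genes were larger and 54 smaller in females. The median slope turned to 0.0178. For single genes given by symbol or identifier, none reversed. The call was lost in 12 of 526 values in females (10 of them ENSRNOG00000018677), 45 of 198 in males and 42 of 285 for the sex difference.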
